A study of Arabidopsis thaliana with 9 samples.

Results

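The genes described here lie at the top end of chromosome 5 of Arabidopsis thaliana, from locus AT5G01010 to locus AT5G03670. The members are all probe sets annotated to a single locus in that range, without the expansin (EXPA) and LHCB antenna genes. They number 145, for 145 loci, out of 13286 loci with such a probe set and 22746 probe sets tested. The RefSeq gene table lists 287 protein-coding loci between the same ends, so the members cover 50.5% of them, and the other loci were not analysed here. The stretch was chosen by measured values: its extent was set after the data were seen, by the log2 differences between NILDOG1 and Ler that passed the threshold there. The differences between these genotypes are therefore given as a description and carry no test.

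Dry, freshly harvested seeds of 3 genotypes were measured on 9 Affymetrix arrays, with 3 biological replicates of each genotype and 8 plants bulked per replicate. Ler is the Landsberg erecta wild type, in which DOG1 (DELAY OF GERMINATION 1) is labelled as low. The dog1-1 mutant, in which DOG1 is labelled as absent, and NILDOG1, a near isogenic line with the Cvi allele of DOG1 and a level labelled as strong, are both given with Landsberg erecta as their background. The labels do not say how much other Cvi sequence NILDOG1 carries or which chromosome segments differ between the lines. All signals are log2 values. An error after ± is the SD of the 3 arrays of a genotype, SE is the standard error from the model, and the number of arrays limits the precision.

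DOG1 encodes a protein that sets the depth of seed dormancy and lies on the long arm of chromosome 5, far from these loci. A near isogenic line is made by repeated backcrossing, which leaves a piece of donor chromosome around the selected gene and can leave further pieces elsewhere. Genes of one such piece share their position and need not share a function. Whether the stretch described here is such a piece was not tested. Its members include ribosomal protein, chaperone, kinase, ubiquitin ligase and enzyme genes. Dry seeds hold a store of transcripts made during maturation on the mother plant.

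The arrays were alike in centre, with medians between 3.51 and 3.6, and Pearson correlations within a genotype ran from 0.992 to 0.996. Ler replicate 1 (7.33) and dog1-1 replicate 3 (8.04) had a low signal of the 25S ribosomal RNA control, which was 9.86 to 11.9 on the other arrays. Of 14 seed storage and oil body genes taken as markers of dry seed, 7 were measured. Their median level was 10.18 in Ler, 9.96 in dog1-1 and 10.28 in NILDOG1. They summed to 71.0 to 72.0 on the dog1-1 arrays, below the 72.3 to 73.6 of Ler and the 72.9 to 73.8 of NILDOG1. Of 7 listed green tissue markers only 2, RCA and LHCB4.2, were measured. They summed to 12.1 to 12.5 on the dog1-1 arrays, against 10.1 to 10.7 in Ler and 9.9 to 10.6 in NILDOG1. The seed coat and endosperm lists held 3 genes each, of which 2 were measured. The 2 seed coat markers (BAN and DFR) summed to 5.44 to 5.84 in Ler, 5.26 to 5.67 in dog1-1 and 5.38 to 5.8 in NILDOG1. The 2 endosperm markers (IKU2 and AGL62, the latter at background) summed to 6.18 to 6.55, 5.48 to 6.01 and 5.83 to 6.28. The part of these markers in the differences below was not tested. In whole seeds, fewer cells of a type and less RNA per cell cannot be told apart.

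Signals of the members spread as widely as 2.03 to 12.70 in their means over all arrays. The median of their mean levels was 3.42, against 3.54 over all probe sets tested. In 15 members (10.3%) all genotype means were at or under 2.56, the highest signal of the TrpnX control probe sets, taken here as background, against 17.3% of all probe sets. A further 18 were at background in some genotypes and 112 in none. The lowest means were those of AT5G02360 (2.07 ± 0.046 in Ler), AT5G02350 (2.16 ± 0.13) and AT5G03060 (2.19 ± 0.056), all at background in every genotype. No filter on level was applied, so all 145 members entered each comparison. Signals of different probe sets do not rank transcripts by abundance, because each probe set has its own response.

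The highest signal was that of AT5G01670, an aldo-keto reductase family gene, with 12.93, 12.93 and 12.82 in Ler, 12.42, 12.31 and 12.27 in dog1-1, and 12.83, 12.80 and 12.96 in NILDOG1. Its dog1-1 arrays lay below all others. AT5G01300, of the phosphatidylethanolamine-binding protein family, followed with 12.69 ± 0.045 in Ler, 11.93 ± 0.092 in dog1-1 and 12.43 ± 0.14 in NILDOG1. SIS (AT5G02020, Salt Induced Serine rich) stood at 11.59 ± 0.10, 12.27 ± 0.027 and 11.62 ± 0.081, so it was highest in dog1-1. These 3 genes and AT5G02580, AT5G03030 and AT5G03180 were the 6 members with a mean above 10.

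NILDOG1 against Ler is the comparison that bounded the stretch. Of the 145 members 15 had an adjusted p under 0.05 in the fit, 8 higher and 7 lower in NILDOG1, where 0.545% of all probe sets did (0.321% higher and 0.224% lower). Without overlap of the arrays were 35 members (24.1%, against 9.32% of all). Nothing is read from these numbers, because these genes chose the stretch. The count of 15 also moved with single arrays: 9 without Ler replicate 2, 6, 7 and 9 without NILDOG1 replicates 1, 2 and 3, and 8 without both arrays of low 25S signal. The tests of dog1-1 further on use the same 3 Ler arrays or the same 3 NILDOG1 arrays, so both lines' values are set side by side without a count of agreement. For the 15 genes a p-value from those tests is not independent of the choice and is given as a description.

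LUL1 (AT5G03200, LOG2-LIKE UBIQUITIN LIGASE1) encodes a RING-type ubiquitin ligase, an enzyme that marks proteins with ubiquitin. Its signals were 3.08, 3.28 and 2.70 in Ler, 6.72, 6.66 and 6.57 in dog1-1, and 7.34, 6.98 and 7.27 in NILDOG1. Ler was low on every array, near the background limit but with a mean of 3.02 above it, and both lines were high with no overlap. NILDOG1 was 18.1-fold above Ler, the 2nd largest rise of all probe sets tested. In dog1-1 LUL1 rose 12.4-fold (log2 change 3.63, SE 0.15; limma, adjusted p = 3.07e-08), the 8th largest rise. NILDOG1 was above dog1-1 by 0.55 (95% interval 0.23 to 0.86; limma, adjusted p = 0.0275). That smaller difference no longer passed after leaving out dog1-1 replicate 2 (0.55), dog1-1 replicate 3 (0.51), NILDOG1 replicate 1 (0.47) or NILDOG1 replicate 3 (0.51), or with each array centred on the hybridization controls (0.36). The gene next to it with a probe set, CPUORF47 (AT5G03190), named for a conserved peptide upstream open reading frame, had 3.46 ± 0.19 in Ler, 4.13 ± 0.12 in dog1-1 and 3.59 ± 0.095 in NILDOG1. It rose in dog1-1 by 0.66 (limma, adjusted p = 0.00182) and was lower in NILDOG1 than in dog1-1 by 0.54 (adjusted p = 0.00789).

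TRM28 (AT5G03670, TON1 Recruiting Motif 28) belongs to a family of proteins that bind TON1, a factor that organises cortical microtubules. It read 5.93, 6.30 and 6.43 in Ler, 6.38, 6.38 and 6.35 in dog1-1, and 5.01, 5.32 and 4.98 in NILDOG1. NILDOG1 stood alone below both other genotypes. The mean of NILDOG1 was 2.17-fold under Ler and 2.41-fold under dog1-1 (log2 change against dog1-1 -1.27, SE 0.13), on the same NILDOG1 arrays that chose the gene. The difference of dog1-1 from Ler was 0.15 (95% interval -0.14 to 0.45; adjusted p = 0.533).

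**Figure D1:**
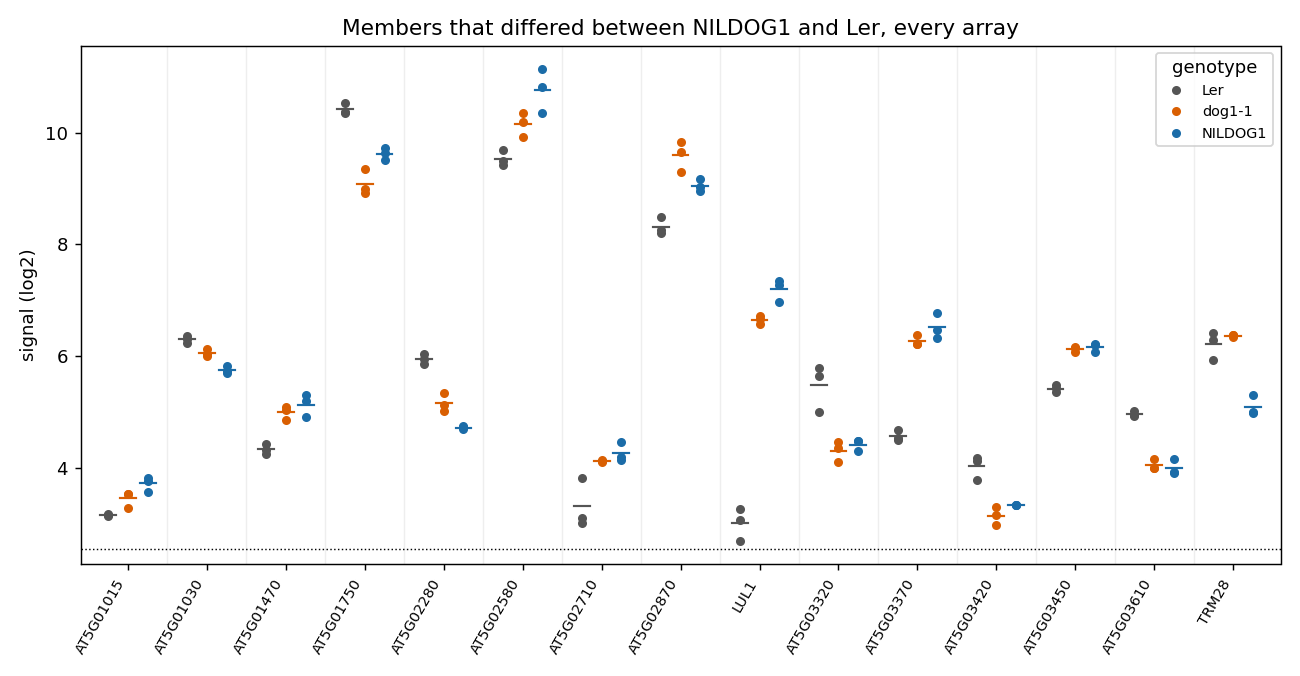
Log2 signal (y axis) of the 15 members that differed between NILDOG1 and Ler (x axis, in order of locus), 1 point per array with a bar at the mean of each genotype; the dotted line is the background limit of 2.56. LUL1 lies near the dotted line in Ler and at 6.57 to 7.34 on the arrays of both lines, whereas TRM28 is low in NILDOG1 alone.

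AT5G03370, of the acylphosphatase family, was next in size among the members higher in NILDOG1. Its signals were 4.54, 4.68 and 4.51 in Ler, 6.22, 6.38 and 6.22 in dog1-1, and 6.34, 6.47 and 6.78 in NILDOG1. Both lines lay far above Ler, NILDOG1 3.87-fold and dog1-1 3.24-fold (limma, adjusted p = 1.85e-06 for dog1-1). They differed from each other by 0.26 (95% interval -0.0037 to 0.52; adjusted p = 0.219), which did not pass. AT5G03450 read 5.36, 5.43 and 5.48 in Ler, 6.08, 6.16 and 6.14 in dog1-1, and 6.22, 6.21 and 6.08 in NILDOG1, with a difference between the lines of 0.04 (95% interval -0.15 to 0.23; adjusted p = 0.855). AT5G01470 (4.34 ± 0.095 in Ler) had 4.86, 5.09 and 5.04 in dog1-1 and 5.14 ± 0.20 in NILDOG1. AT5G02710 had 3.33 ± 0.44, 4.13 ± 0.017 and 4.27 ± 0.18. In Ler its replicate 1 read 3.83, close to the lines, and the other arrays 3.12 and 3.03. AT5G02580 stepped from 9.53 ± 0.14 in Ler through 10.16 ± 0.21 in dog1-1 to 10.77 ± 0.39 in NILDOG1. Its rise in dog1-1 (0.62; limma, adjusted p = 0.0355) was lost without any 1 Ler array, dog1-1 replicate 1 or 2, or NILDOG1 replicate 1 (0.52 to 0.70). The difference between the lines (0.61; adjusted p = 0.0418) was lost without Ler replicate 2 or 3, dog1-1 replicate 1 or 3, or NILDOG1 replicate 1 or 3 (0.43 to 0.63).

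Lower in both lines than in Ler were AT5G03610, AT5G02280, AT5G01750, AT5G03320 and AT5G03420. AT5G03610, a GDSL-type lipase family gene, read 4.93, 4.96 and 5.02 in Ler, 4.16, 4.01 and 4.004 in dog1-1, and 4.16, 3.91 and 3.93 in NILDOG1. Its groups in the 2 lines overlapped and differed by -0.06 (95% interval -0.27 to 0.16; adjusted p = 0.805). AT5G02280, a homologue of the yeast TRS23 subunit of the TRAPP complex of membrane traffic, read 6.04, 5.95 and 5.86 in Ler, 5.13, 5.35 and 5.01 in dog1-1, and 4.75, 4.70 and 4.73 in NILDOG1. The groups stood in 3 separate steps, and NILDOG1 was below dog1-1 by 0.44 (log2 change -0.44, 95% interval -0.67 to -0.21; limma, adjusted p = 0.0142). That last step was lost without dog1-1 replicate 2 (-0.35) or NILDOG1 replicate 2 (-0.43).

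AT5G01750, a LURP1-related gene, had 10.41 ± 0.095 in Ler, 9.09 ± 0.23 in dog1-1 and 9.62 ± 0.11 in NILDOG1, so dog1-1 was lowest. The receptor-like kinase gene AT5G03320 had 5.48 ± 0.42, 4.31 ± 0.19 and 4.42 ± 0.10, with 5.01 on Ler replicate 3 against 5.79 and 5.64 on the other Ler arrays. AT5G03420 had 4.04 ± 0.21, 3.15 ± 0.16 and 3.35 ± 8.5e-04. The members AT5G01030 and AT5G01015 changed little in size. The first had 6.30 ± 0.059 in Ler, 6.07 ± 0.067 in dog1-1 and 5.76 ± 0.059 in NILDOG1, and the second 3.17 ± 0.014, 3.46 ± 0.15 and 3.73 ± 0.13. In both, the dog1-1 mean lay between the means of Ler and NILDOG1, and the difference of dog1-1 from Ler did not pass (limma, adjusted p = 0.106 and 0.0952). The last of the 15, AT5G02870, is a ribosomal protein gene described with its group below. Only LUL1, AT5G03370, AT5G03450, AT5G02280, AT5G03610 and TRM28 kept their call in NILDOG1 against Ler with any 1 array left out. After centring on the hybridization controls AT5G01030, AT5G01750 and AT5G03420 no longer passed in that comparison. Both repeats use the arrays that chose these genes, so they describe the calls and are no support for them.

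Seeds labelled as lacking DOG1 were set against the wild type. Of the 145 members 37 passed with limma (25.5%), 21 higher and 16 lower in dog1-1, where 13.6% of all probe sets did. The share was 10.8% of 10359 annotated probe sets on chromosomes 1 to 4 and 10.7% of 1455 between AT5G03680 and AT5G39990. Changes of at least 2-fold were called in 9 members (6.21%, against 3.45% of all probe sets). Of these, LUL1, AT5G03370, AT5G02870, AT5G01750 and AT5G03320 are among the 15 genes that chose the stretch. AT5G01210, AT5G02230, AT5G02610 and AT5G03560 are not. At an unadjusted p under 0.05 there were 53 (36.6%, against 25.6% of all). Among the 130 members outside the 15 that chose the stretch, 25 passed (19.2%), 14 higher and 11 lower. The arrays of dog1-1 and Ler did not overlap in 50 members (34.5%, against 26.9% of all). The median change of the members was -0.07, that of all probe sets -0.04, and the median absolute change 0.18 against 0.14. The higher calls were 14.5% of the members against 8.33% of all probe sets, and the lower calls 11.0% against 5.28%. Each share and median of the 145 members includes the 15 genes, which were chosen on the same Ler arrays. Nothing about the stretch is read from these excesses.

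The mean of the hybridization controls was 9.19 to 9.57 in Ler and 8.81 to 9.14 in dog1-1. With each array centred on them the median change of all probe sets moved to 0.31, and 35 members passed, 29 higher and 6 lower. All 21 rises were kept and 6 of the 16 falls. Directions below are relative to the centre of the deposited values. With any 1 array left out the count lay between 26 and 36, and 15 rises and 10 falls were kept each time.

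**Figure D2:**
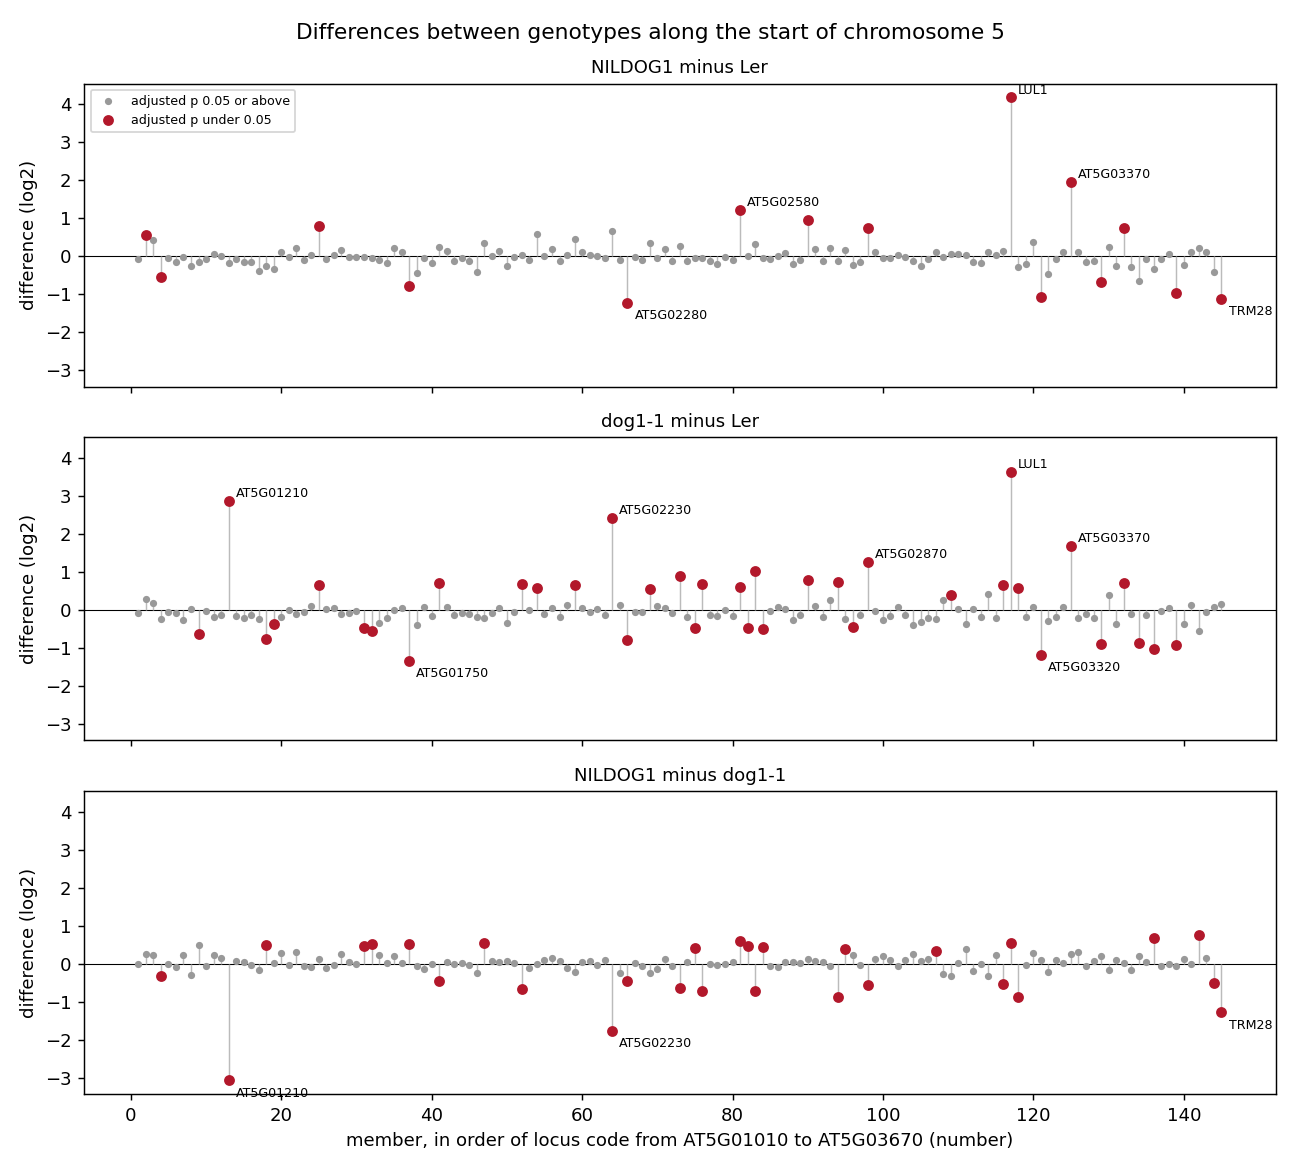
Log2 difference (y axis) of each of the 145 members in order of locus (x axis) for NILDOG1 minus Ler, dog1-1 minus Ler and NILDOG1 minus dog1-1; red points have an adjusted p under 0.05. Most members lie near 0 in all panels, and AT5G01210 and AT5G02230 stand out in the comparisons with dog1-1 but not in the top panel.

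After LUL1, the largest rise in dog1-1 was that of AT5G01210, an acyltransferase family (HXXXD-type) gene. It read 4.60, 5.03 and 4.95 in Ler, 7.70, 7.75 and 7.75 in dog1-1, and 4.95, 4.47 and 4.60 in NILDOG1. The dog1-1 arrays stood alone and close together, while Ler and NILDOG1 overlapped. The rise was 7.33-fold (log2 change 2.87, SE 0.14; limma, adjusted p = 1.04e-07), the 30th largest of all probe sets. AT5G02230, which encodes a haloacid dehalogenase-like hydrolase, read 6.57, 6.01 and 5.61 in Ler, 8.67, 8.42 and 8.40 in dog1-1, and 6.49, 6.74 and 6.97 in NILDOG1. It rose 5.40-fold in dog1-1 (log2 change 2.43, SE 0.20; limma, adjusted p = 8.08e-06), and the Ler arrays spread more than the others. SIS rose by 0.68 (adjusted p = 3.3e-04), with 12.31, 12.26 and 12.26 in dog1-1 above 11.53 to 11.71 on the Ler arrays.

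Smaller rises included AT5G01800, a saposin-like gene (4.96 ± 0.25 in Ler and 5.66 ± 0.20 in dog1-1), AT5G02160 (3.07 ± 0.10 and 3.74 ± 0.21) and AT5G02050, of the mitochondrial glycoprotein family (7.32 ± 0.25 and 7.92 ± 0.23). For AT5G02050 NILDOG1 had 7.91 ± 0.19, and the rise in dog1-1 (0.59; limma, adjusted p = 0.0224) was lost without Ler replicate 2 (0.45), dog1-1 replicate 2 (0.49) or dog1-1 replicate 3 (0.57). GSTL3, a lambda class glutathione transferase gene, read 3.28, 3.43 and 4.35 in dog1-1 against 2.70 to 3.06 in Ler (adjusted p = 0.0483). The highest value is that of dog1-1 replicate 3, an array of low 25S signal, and without it the change was 0.41 against 0.74 (adjusted p = 0.0966). The call was lost on leaving out any 1 array except dog1-1 replicate 1.

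The largest fall in dog1-1 was that of AT5G01750, by 1.33 (2.51-fold; limma, adjusted p = 1.55e-05), from 10.52, 10.35 and 10.37 to 9.35, 8.93 and 8.99. AT5G03320 fell 2.25-fold (adjusted p = 7.29e-04). AT5G03560 fell 2.03-fold (adjusted p = 1.16e-05), with 8.50, 8.58 and 8.49 in Ler, 7.44, 7.51 and 7.57 in dog1-1, and 8.14, 8.27 and 8.14 in NILDOG1. Its genotypes did not overlap, and NILDOG1 lay nearer to Ler. AT5G03610 fell by 0.91, AT5G03420 by 0.89 and AT5G03490, a glycosyltransferase gene, by 0.87 (5.10 ± 0.13 in Ler, 4.24 ± 0.38 in dog1-1 and 4.46 ± 0.078 in NILDOG1). These 6 falls were the ones kept after centring on the hybridization controls. AT5G01750, AT5G03320, AT5G03610 and AT5G03420 are among the genes that chose the stretch on the same Ler arrays. AT5G03560 and AT5G03490 are not.

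The falls of AT5G02280 (0.78) and of AT5G01300 (0.76) and AT5G01670 (0.56) were kept with any 1 array left out but not after that centring. Their changes were then -0.43, -0.41 and -0.21. Of these genes, AT5G02280 is among those that chose the stretch.

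**Figure D3:**
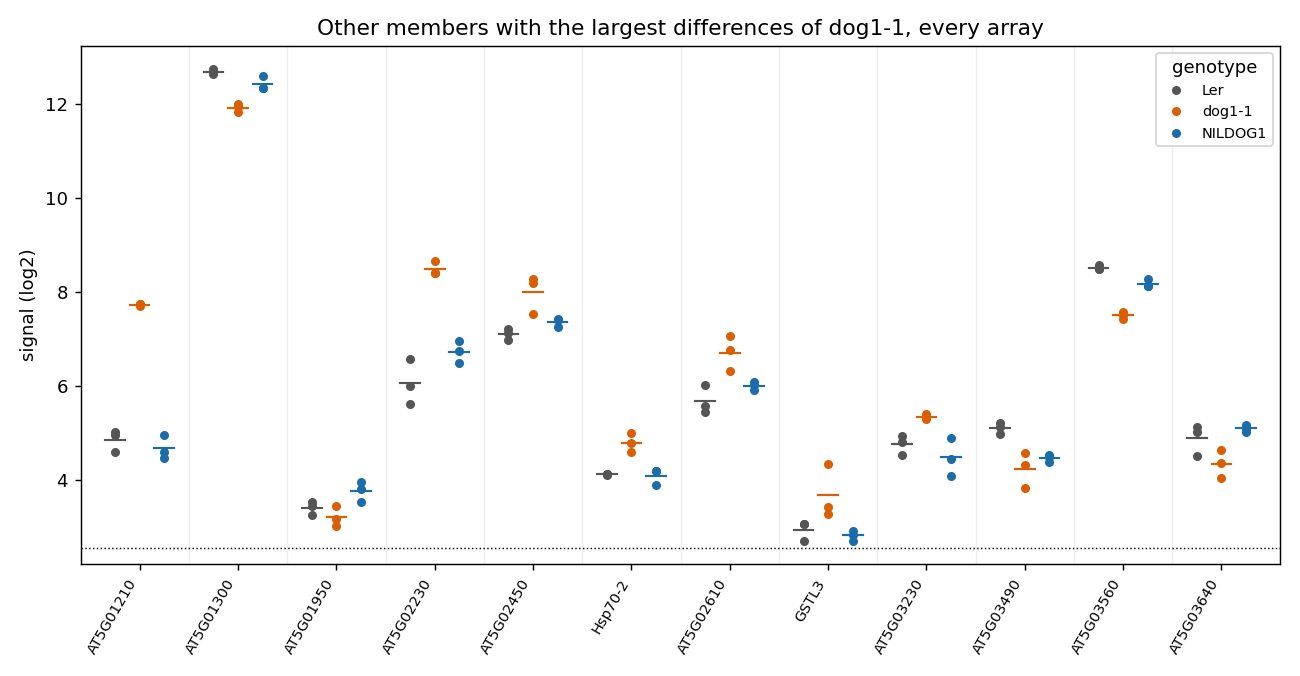
Log2 signal (y axis) of the 12 other members with the largest differences of dog1-1 from Ler or from NILDOG1 (x axis, in order of locus), 1 point per array with a bar at the genotype mean; the dotted line is the background limit of 2.56. For AT5G01210 the dog1-1 arrays sit at 7.70 to 7.75, far above the 4.47 to 5.03 of Ler and NILDOG1.

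By function, 10 lists of 110 loci of this stretch were followed, of which 30 members were measured. The other 115 members are in no list, so a list does not hold every measured member of its function. The ribosomal protein genes were the list in which each measured member passed in dog1-1 against Ler: all 3 were higher, and their median change was 1.03, against -0.04 over all probe sets. The list holds 4 loci, and 1 of them was not analysed here. The lists are short, and their counts stand against calls in 13.6% of all probe sets (8.33% higher, 5.28% lower) and 25.5% of the members. AT5G02870, of the L4 family, read 8.49, 8.27 and 8.21 in Ler, 9.29, 9.66 and 9.83 in dog1-1, and 9.03, 9.18 and 8.95 in NILDOG1. It rose 2.42-fold in dog1-1 (limma, adjusted p = 5.87e-05), and NILDOG1 lay between both. AT5G02870 is among the genes that chose the stretch, on the same Ler arrays, so its call is a description. AT5G02610, an L29 (L35) family gene, read 6.03, 5.58 and 5.44, then 6.31, 7.06 and 6.76, and 6.02, 5.93 and 6.08 in the same order, a 2.04-fold rise in dog1-1 (adjusted p = 0.00238). AT5G02450, of the L36e family, rose 1.86-fold (adjusted p = 0.00296), from 7.22, 7.12 and 6.98 to 7.54, 8.28 and 8.19, with 7.37 ± 0.091 in NILDOG1. In all 3 genes dog1-1 replicate 1 was the lowest dog1-1 array and yet above every Ler array.

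The chaperone list held 5 measured genes, of which 1 rose in dog1-1, another 1 fell and the remaining 3 missed the threshold. Hsp70-2 (AT5G02490), a heat shock 70 protein gene, rose from 4.13, 4.12 and 4.11 to 4.79, 5.003 and 4.60 (adjusted p = 0.00219), with 4.18, 4.18 and 3.89 in NILDOG1. AT5G02480, with an HSP20-like domain, fell by 0.47 from 6.59 ± 0.17 to 6.12 ± 0.18 (adjusted p = 0.0183). That fall did not pass without Ler replicate 2 (-0.41), Ler replicate 3 (-0.44), dog1-1 replicate 1 (-0.39) or dog1-1 replicate 2 (-0.45), and was -0.12 after centring on the hybridization controls. Of 3 listed ubiquitin and protein turnover genes 1 rose, LUL1, and 2 did not pass. Of 3 listed kinase and phosphatase genes 1 fell, AT5G03320, and 2 did not pass. AT5G03640, a protein kinase family gene outside the list, did not pass in dog1-1 against Ler (-0.55; limma, adjusted p = 0.0584). LUL1 and AT5G03320, like AT5G02870 above, are among the 15 genes that chose the stretch.

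Of 5 metabolic enzyme genes 1 rose (GSTL3), 1 fell (AT5G03490) and 3 did not pass, among them SBE2.2, a starch branching enzyme gene, at 3.06 ± 0.18 in Ler, 3.01 ± 0.12 in dog1-1 and 3.17 ± 0.20 in NILDOG1. Of 4 genes of chromosomes, cytoskeleton and membrane traffic 1 rose, 1 fell (AT5G02280) and 2 did not pass. AT5G02280 is also among the genes that chose the stretch. The rise was that of AT5G02370, a microtubule motor gene, from background (2.55 ± 0.045) to 3.11 ± 0.14 (adjusted p = 0.0222). It no longer passed without Ler replicate 1 (0.55) or 3 (0.55), or without dog1-1 replicate 1 (0.56) or 2 (0.50), or without both arrays of low 25S signal (0.62).

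No listed transcription regulator passed with limma (0 of 4). JKD, a zinc finger factor gene of root patterning, had 3.04 ± 0.20 in Ler and 3.48 ± 0.30 in dog1-1 (limma, adjusted p = 0.0787). JKD did pass after centring on the hybridization controls (0.79) and without dog1-1 replicate 2 (0.56). Neither of 2 listed transport genes passed. AT5G03380, of the heavy-metal-binding domain family, had 8.58 ± 0.045 in Ler, 8.37 ± 0.10 in dog1-1 and 8.69 ± 0.13 in NILDOG1. TBL35, the single measured gene of the wall list, was at background in all genotypes (2.55 ± 0.13 in Ler). The listed hormone genes were not analysed here, because none had an annotated probe set.

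**Figure D4:**
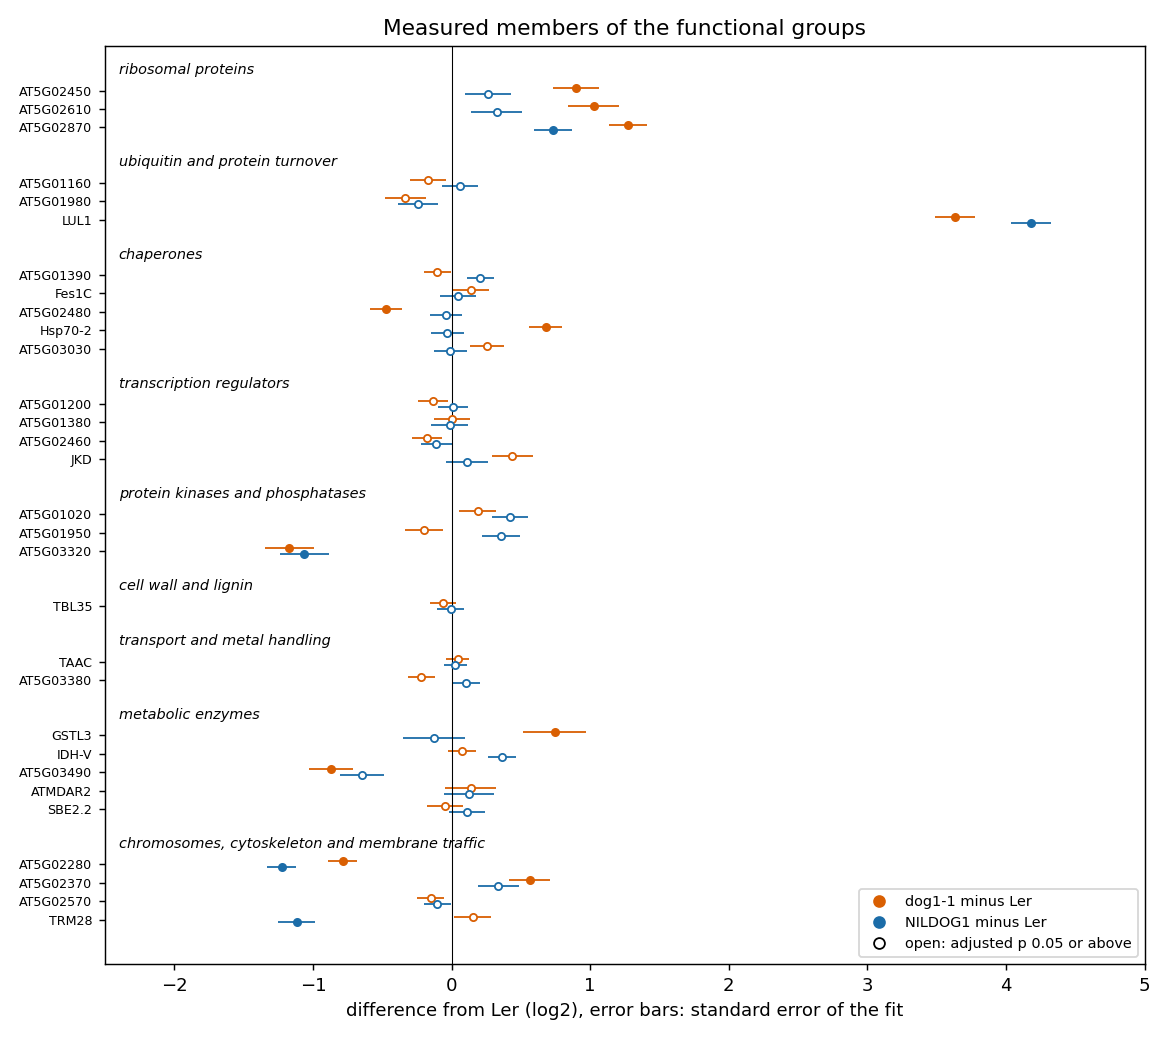
Log2 difference from Ler (x axis) of the 30 measured members of the functional lists (y axis), with standard errors of the fit; orange is dog1-1 and blue NILDOG1, and filled points have an adjusted p under 0.05. The 3 ribosomal protein genes lie at 0.90 to 1.27 in dog1-1, and LUL1 lies beyond all others in both lines.

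NILDOG1 against dog1-1 tests whether the lines differ from each other. Of the 145 members 29 passed with limma (20.0%), 14 higher and 15 lower in NILDOG1, where 12.5% of all probe sets did (4.94% higher and 7.52% lower). The share was 10.4% on chromosomes 1 to 4 and 9.83% between AT5G03680 and AT5G39990. By other measures the members lay closer to all probe sets or below them. At an unadjusted p under 0.05 there were 36 (24.8%, against 23.6% of all), and the arrays did not overlap in 44 (30.3%, against 27.0% of all). Changes of at least 2-fold were called in 3 members (2.07%, against 3.43%), and the median absolute change was 0.12 against 0.13. Among the 130 members outside the 15, 22 passed (16.9%), 11 in each direction. The shares of the 145 members include those 15 genes, which were chosen on the same NILDOG1 arrays. The count fell to 16 and 18 without dog1-1 replicates 2 and 3, to 14, 18 and 17 without NILDOG1 replicates 1, 2 and 3, and to 18 without both arrays of low 25S signal. After centring on the hybridization controls it was 14, with 0 higher and 14 lower.

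Members lower in NILDOG1 than in dog1-1 with any 1 array left out were AT5G01210, SIS, AT5G02230, Hsp70-2, CPUORF47, AT5G03230, AT5G03660 and TRM28 (of these, TRM28 is among the 15 genes that chose the stretch), and all 8 also passed after that centring. AT5G01210 was 8.34-fold lower (limma, adjusted p = 5.8e-08), AT5G02230 3.40-fold (adjusted p = 1.01e-04) and SIS 1.58-fold (adjusted p = 4.19e-04). AT5G03230, of the senescence regulator (DUF584) family, had 5.34 ± 0.052 in dog1-1 and 4.48 ± 0.40 in NILDOG1, where the arrays read 4.45, 4.09 and 4.90 (adjusted p = 0.00543). AT5G03660, the locus next to TRM28, read 8.33, 8.13 and 8.13 in Ler, 8.29, 8.24 and 8.31 in dog1-1, and 7.71, 7.73 and 7.89 in NILDOG1. It was lower in NILDOG1 than in dog1-1 by 0.51 on the log2 scale (log2 change -0.51, adjusted p = 0.00376), while dog1-1 and Ler overlapped.

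In the other direction AT5G01300, AT5G01670 and AT5G03560 were higher in NILDOG1 than in dog1-1 with any 1 array left out (by 0.50, 0.53 and 0.68; limma, adjusted p = 0.00524, 0.00201 and 2.71e-04). None of the 14 higher calls was kept after centring on the hybridization controls. AT5G03640, a protein kinase family gene, read 4.63, 4.04 and 4.35 in dog1-1 and 5.09, 5.03 and 5.18 in NILDOG1, a difference of 0.76 (adjusted p = 0.0118). The call was lost without dog1-1 replicate 2 (0.61) or NILDOG1 replicate 3 (0.72). AT5G01950, a leucine-rich repeat receptor kinase gene, had 3.21 ± 0.22 in dog1-1 and 3.76 ± 0.22 in NILDOG1 (adjusted p = 0.0201). It was lost without dog1-1 replicate 1 (0.46) or 3 (0.53) and without NILDOG1 replicate 1 (0.53) or 2 (0.46).

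Along the stretch the members were taken in 5 consecutive blocks of 29. In dog1-1 against Ler the blocks held 5, 6, 11, 6 and 9 calls, with the most between AT5G02160 and AT5G02670 (7 higher, 4 lower). The shares ran from 17.2% in the first block to 37.9% in the middle one, against 13.6% of all probe sets. In NILDOG1 against dog1-1 they held 3, 6, 9, 5 and 6, from 10.3% in the first block to 31.0% in the middle one, against 12.5% of all. The genes that bounded the stretch, those of NILDOG1 against Ler, fell 3, 1, 2, 2 and 7 to the blocks, the most between AT5G03200 and AT5G03670. The block counts and shares above include these genes, so nothing about position is read from them. The longest run of neighbouring members called held 4 genes, AT5G02580, AT5G02590, AT5G02610 and ANK1, in dog1-1 against Ler and in NILDOG1 against dog1-1, and the run mixed both directions in each. CPUORF47, LUL1 and AT5G03230 made a run of 3 in both comparisons. All were higher in dog1-1 than in Ler, and in NILDOG1 against dog1-1 they were lower, higher and lower. The rise of AT5G03230 in dog1-1 was 0.58 (limma, adjusted p = 0.0475). It was lost without Ler replicate 2 or 3, any 1 dog1-1 array or NILDOG1 replicate 1. Runs were picked after their values were seen, and AT5G02580 and LUL1 are among the genes that chose the stretch. The block medians stayed between -0.12 and 0.00 for dog1-1 against Ler.

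At the far end the last members were SBE2.2, AT5G03660 and TRM28, and their differences of NILDOG1 from Ler were 0.11, -0.42 and -1.12. The first measured loci beyond it were PTL, AT5G03700 and AT5G03795, with -0.41, -0.40 and 0.67. AT5G03795 read 6.96, 7.32 and 6.70 in Ler, 7.67, 7.84 and 7.78 in dog1-1, and 7.65, 7.70 and 7.65 in NILDOG1, so its Ler arrays were below those of both lines although it lies outside. PTL, a trihelix factor gene, had 3.25 ± 0.16 in Ler, 2.75 ± 0.13 in dog1-1 and 2.84 ± 0.12 in NILDOG1, and its Ler arrays were above those of both lines. In dog1-1 against Ler, PTL (-0.50; limma, adjusted p = 0.0112) and AT5G03795 (0.77; adjusted p = 0.0021) passed. AT5G03700 did not (-0.35; adjusted p = 0.121). No annotated probe set of chromosome 5 comes before AT5G01010.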

How the data were processed

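Seeds of 3 genotypes were measured on 9 arrays, 3 per genotype. The authors deposited normalized log2 signals, 1 for each probe set on each array. RMA is named as their tool in the submitters' processing notes; its version and the chip definition were not stated, and the log base was read from the values. RMA sets all arrays to a common distribution, so a change of all transcripts together would be hidden. Of 22810 probe sets 64 Affymetrix controls were left out. Probe sets were named through the platform annotation and the RefSeq gene table (13436 with 1 locus), and no coordinates are printed because the builds may differ. Probe sequences were not used, so mismatches of probes to Cvi or Ler alleles were not tested.

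All probe sets entered 1 limma fit (limma 3.58.1, R 4.3.3; lmFit and eBayes, genotype as the only term, 6 residual degrees of freedom), with Benjamini-Hochberg adjustment over 22746 probe sets and a threshold of 0.05. The fit was tested on simulated data. Replicate numbers showed no pairing of arrays. After removal of genotype means, correlations of same-numbered arrays ran from -0.231 to 0.0299, with 0 of 9 above 0.1. Of 18 pairs of arrays with other numbers 6 were above 0.1, the highest at 0.275. A block that joins arrays of other numbers was not tested. Members, lists and the rule for named genes (the genes called in NILDOG1 against Ler, the 8 largest rises and falls in dog1-1, 6 each between the lines, examples per list, the ends and the extremes of level) were chosen with earlier results of these data known. Other genes named (CPUORF47, AT5G01800, AT5G02160, AT5G02050 and genes that complete a count) were chosen after their values were seen. Alternatives were a fit of only the arrays of both genotypes compared, an intensity trend, a filter on dim probe sets and quantile normalization. Further ones were centring on 18 hybridization control probe sets, a replicate block, a 2-fold minimum and each array left out. Leaving out both arrays of low 25S signal was added after seeing the data.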

Additional observations from a re-analysis of the deposited data

How the results depend on the processing

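The number of members called in dog1-1 against Ler was 37, and between 26 and 36 with 1 array left out. It stayed within 1.5 times of 37 under each alternative except the 2-fold minimum, which left 9. In NILDOG1 against Ler the count of 15 ran from 6 to 15 with 1 array left out, was 8 without both arrays of low 25S signal, and 6 with a 2-fold minimum. In NILDOG1 against dog1-1 the count of 29 ran from 14 to 30 with 1 array left out, was 18 without both arrays of low 25S signal, 14 after centring on the hybridization controls (0 higher) and 3 with a 2-fold minimum (2.07%, against 3.43% of all probe sets). That centring moves the median of all probe sets by construction. With the replicate number as a block the counts were 34, 10 and 24, and the numbers showed no pairing of arrays. Among single members, 2 that had not passed turned sign after centring on the hybridization controls, in dog1-1 against Ler: TBL35 (0.29) and AT5G03380 (0.13). Of 85 member changes followed, centring on the hybridization controls ended 28 calls, leaving out both arrays of low 25S signal 28, using only the arrays of both genotypes 16, the block 13, quantile normalization 8, the intensity trend 4 and the filter on dim probe sets 1. Over all single arrays left out, 180 repeats lost a call, 584 stayed on their side of the threshold and 1 gained a call. No array holds a detection call, so levels near 2.56 cannot be told from background.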

Other observations

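LUL2 and LUL4, relatives of LUL1 with an annotated probe set, were chosen after the values of LUL1 were seen. LUL2 (AT3G53410, on chromosome 3) had 5.62 ± 0.041 in Ler, 5.81 ± 0.19 in dog1-1 and 5.72 ± 0.067 in NILDOG1. LUL4 (AT3G06140, also on chromosome 3) had 2.93 ± 0.12, 2.97 ± 0.25 and 2.90 ± 0.19. Neither passed in any comparison with limma. The arrays of LUL4 overlapped between all genotypes, and those of LUL2 between all but dog1-1 and Ler.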
